A study of Rattus norvegicus with 9 samples.

Results

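The genes described here are markers of the endothelium of the liver. The set was given by gene symbol, chosen with earlier results of these data known, and holds 10 genes, which were looked up among the 32883 genes of the deposited table. The sinusoidal class consists of Lyve1, Stab1, Stab2, Clec4g and Fcgr2b, the continuous class of Cd34, Vwf, Plvap and Pecam1, and Kdr was placed in neither class. A row with the gene's symbol was found for 9 of the 10, and Pecam1 was not analysed here. All 9 had enough counts to be tested in every comparison.

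Livers of 9 male Sprague-Dawley rats were profiled by mRNA sequencing, with 3 rats and 1 library per rat in each group. Normal control rats (N1, N3 and N12) received a normal diet and no carcinogen. DEN model rats (M13, M17 and M24) were scheduled for weekly intraperitoneal injections of 0.01% diethylnitrosamine (DEN), a liver carcinogen, over 16 weeks, and PZH administration rats (G27, G28 and G42) received the same DEN schedule together with Pien-Tze-Huang (PZH), a Chinese patent medicine. Group membership was read from the letter in each rat's name together with the 3 groups of 3 rats in the study's methods. The treatment tag deposited with the M rats names PZH, as it does for the G rats, and so disagrees with this grouping. Which PZH dose a sequenced rat received, its age and its week of killing are not given in the sources used here. Rats of the study were killed at several time points, and time and treatment cannot be told apart in these libraries.

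The sinusoids of the liver are lined by a fenestrated endothelium without an organized basement membrane, which takes up waste molecules from the blood through scavenger receptors. In chronic liver injury this lining is known to lose its fenestrae and scavenger receptors and to gain features of continuous capillaries, among them a basement membrane and surface CD34, a process called capillarization. Bulk liver RNA holds all cells of the tissue, so fewer cells of a type and less RNA per cell cannot be told apart.

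Total counts per rat lay between 14922973 and 27161496, the highest in G27. Values per rat are given as CPM, read counts scaled to a common library size with edgeR's TMM factors, and 3 counts correspond to 0.125 to 0.252 CPM. The TMM factors differed between groups, from 0.731 to 0.799 in normal control rats, 1.21 to 1.58 in DEN model rats and 0.863 to 0.941 in PZH administration rats. Scaling by library totals instead moved the all-gene median, on the log2 scale, by 0.86 between DEN model and normal control rats and by -0.67 between PZH administration and DEN model rats. Directions are therefore relative to the bulk of the genes, and members whose direction depended on the scaling are named. The hepatocyte markers Alb, Apoa1, Ttr, Tf, Cps1, Asgr1 and Hnf4a summed to between 29431 and 153181 CPM, so that defining markers of liver were present in every rat.

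For 7 of the 10 members the stretch upstream of the RefSeq start site was at hand (assembly GRCr8). The 250 bases before the start site are shown, 5′ to 3′ on the gene's strand, for both continuous genes with an entry (Cd34 and Plvap), for Clec4g as the most decreased sinusoidal gene and for Stab2 as a scavenger receptor that did not pass the test. Capitals mark matches to the motifs searched on both strands.

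Cd34: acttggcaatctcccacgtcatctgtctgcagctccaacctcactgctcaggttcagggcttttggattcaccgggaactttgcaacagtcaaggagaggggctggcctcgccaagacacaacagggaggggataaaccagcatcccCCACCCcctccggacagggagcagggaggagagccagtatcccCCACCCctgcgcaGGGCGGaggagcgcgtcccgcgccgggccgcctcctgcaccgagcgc
Plvap: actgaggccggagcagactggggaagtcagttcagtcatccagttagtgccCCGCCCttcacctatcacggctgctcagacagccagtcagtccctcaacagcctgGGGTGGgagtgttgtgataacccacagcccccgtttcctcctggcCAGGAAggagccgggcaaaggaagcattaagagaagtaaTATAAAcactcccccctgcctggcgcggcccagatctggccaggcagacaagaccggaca
Clec4g: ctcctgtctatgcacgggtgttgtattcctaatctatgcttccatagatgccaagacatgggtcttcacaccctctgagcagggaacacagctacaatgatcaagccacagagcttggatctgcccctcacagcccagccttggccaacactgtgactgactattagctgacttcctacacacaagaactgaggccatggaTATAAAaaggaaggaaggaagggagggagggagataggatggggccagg
Stab2: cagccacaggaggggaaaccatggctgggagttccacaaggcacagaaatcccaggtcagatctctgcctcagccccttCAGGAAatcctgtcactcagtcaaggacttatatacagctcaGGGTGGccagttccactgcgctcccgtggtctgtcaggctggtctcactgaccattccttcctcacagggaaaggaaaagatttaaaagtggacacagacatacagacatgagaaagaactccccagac

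These stretches lie at chr13:109008536-109008785 on the plus strand for Cd34, and on the minus strand at chr16:18231280-18231529 for Plvap, chr12:6582914-6583163 for Clec4g and chr7:23320563-23320812 for Stab2. The ETS-type core was searched as CAGGAA and alternatively as CCGGAA, the GATA-type core as AGATAA and the AP-1 site as TGANTCA. The CACCC box was searched as CCACCC, the GC box as GGGCGG and the TATA box as TATAAA. These letters do not overlap each other in the stretches shown. ETS-type letters were present in 5 of the 7 members (Lyve1, Stab1, Stab2, Kdr and Plvap), against 34.9% of all 27457 promoters of this length. A CACCC box was present in Stab1, Stab2, Kdr, Cd34 and Plvap, against 26.6% of all promoters. The GC box was found in Cd34, Kdr and Plvap (32.4% of all) and the TATA box in Clec4g and Plvap (13.1%). The GATA-type core (10% of all) and AP-1 (6.36%) were in none of these 7 windows. The GC box was in both continuous windows and in none of the 4 sinusoidal windows, and also in that of Kdr, which is in neither class. This difference rests on few windows and was not tested. A match in letters is a description of the sequence only.

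In DEN model against normal control rats, the comparison that addresses the change from healthy to carcinogen-injured liver, the tested continuous genes rose and 3 of 5 sinusoidal genes fell, of which Lyve1 lost its decrease when library totals were used. All 3 tested continuous genes were higher (Cd34, Vwf and Plvap). Of the 5 sinusoidal genes 3 were lower (Clec4g, Fcgr2b and Lyve1), and Stab1 and Stab2 did not pass the test. Genes are called changed here at a Benjamini-Hochberg adjusted p under 0.05 over all genes in edgeR's quasi-likelihood test. At that threshold 45.8% of all 14255 tested genes were called, 25.3% as higher and 20.5% as lower, so a call by itself is common in this comparison. The study's stricter thresholds, a log fold change beyond 2 in either direction and a P below 0.001, were read here as log2 and unadjusted P, which the study's text does not specify. Cd34, Vwf and Clec4g met them, as did 12.3% of all genes. Groups did not overlap for 3 members higher and 4 lower in DEN model rats, against 58.8% of all genes, 31.4% higher and 27.4% lower. The plot of CPM by rat shows every value.

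**Figure D1:**
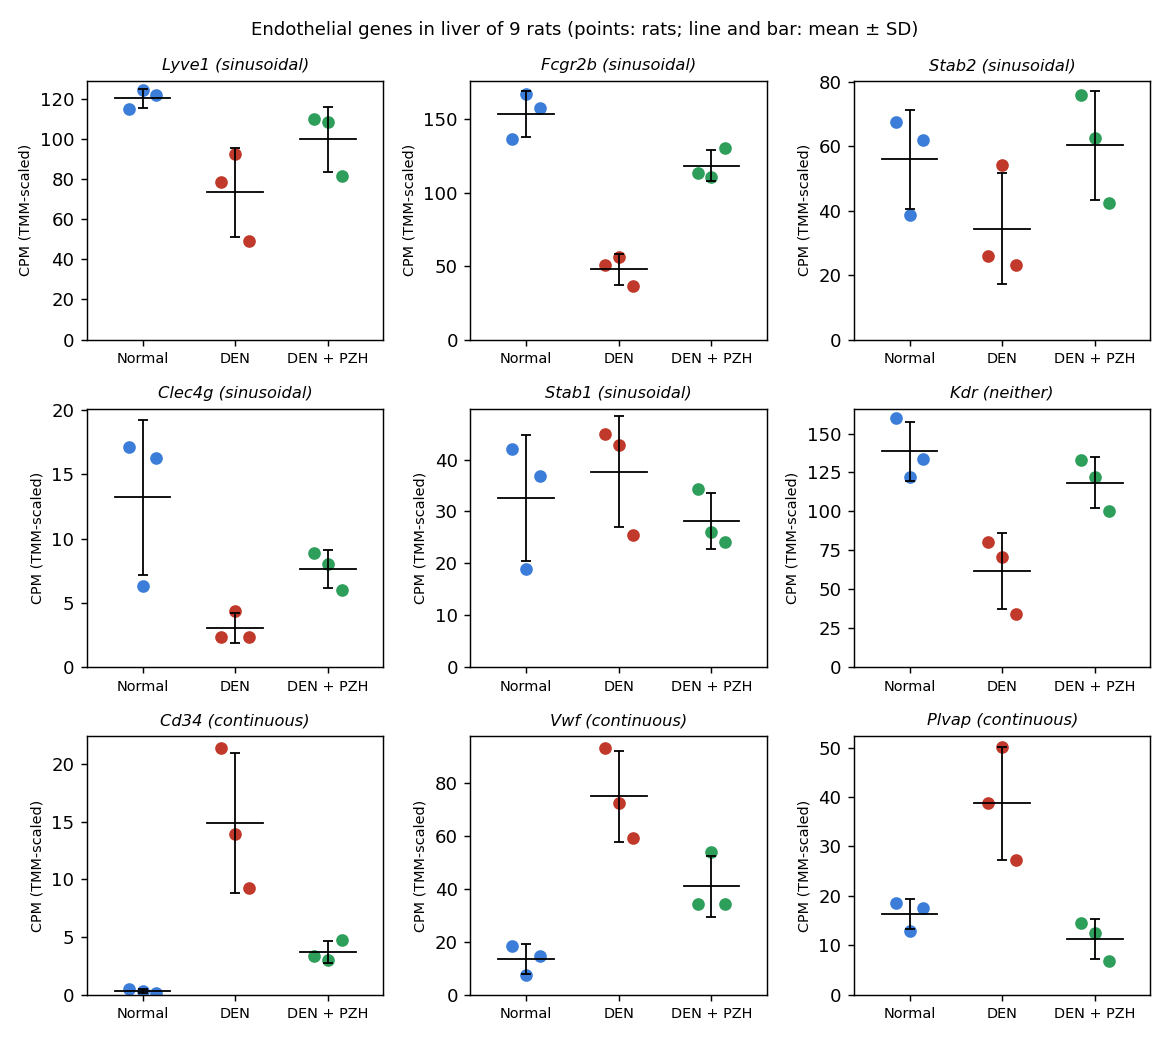
CPM of the 9 members in each rat (points) with the mean and SD of 3 rats per group, each panel on its own linear axis starting at 0. The DEN model rats stand above all normal control rats for Cd34, Vwf and Plvap and below all of them for Lyve1, Fcgr2b, Clec4g and Kdr, whereas the groups overlap for Stab1 and Stab2.

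Cd34 encodes a surface sialomucin of continuous capillaries and of blood progenitors (chromosome 13, 113691932 to 113711647 in the coordinates of the authors' table, as for the members that follow; the build is not given in the sources used here). It was at 0.469, 0.336 and 0.153 CPM in rats N1, N3 and N12, at 21.3, 13.97 and 9.28 CPM in M13, M17 and M24, and at 3.33, 2.99 and 4.77 CPM in G27, G28 and G42. The 3 groups did not overlap, with normal control rats lowest and DEN model rats highest. Normal control values rest on 2 to 6 counts per rat, and DEN model values on 223 to 502. Its log2 fold change was 5.53 (standard error, SE, 0.48; adjusted p = 0.00015 by edgeR) in DEN model against normal control rats, the largest change of any member. After PZH it was -1.98 against the DEN model (SE 0.35, adjusted p = 0.014), and Cd34 remained above normal control rats with a log2 fold change of 3.51 (SE 0.51, adjusted p = 0.0077).

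Vwf encodes von Willebrand factor, the clotting protein that endothelium and megakaryocytes make (chromosome 4, 158088505 to 158219523). Normal control rats N1, N3 and N12 had 18.5, 7.47 and 14.8 CPM, DEN model rats M13, M17 and M24 had 93.2, 72.4 and 59.0 CPM, and PZH administration rats G27, G28 and G42 had 34.4, 54.0 and 34.3 CPM. Again no group overlapped another. On the log2 scale the fitted change was 2.48 (SE 0.32, adjusted p = 0.00068 by edgeR) in the DEN model and 1.60 in PZH administration against normal control rats (SE 0.33, adjusted p = 0.027). The decrease after PZH against the DEN model was the smallest called, at -0.85 (SE 0.25, adjusted p = 0.0497).

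Plvap encodes the protein of the diaphragms that span fenestrae and caveolae (chromosome 16, 19906318 to 19918689). It was at 18.6, 12.9 and 17.6 CPM in N1, N3 and N12, at 38.8, 50.1 and 27.3 CPM in M13, M17 and M24, and at 14.6, 12.5 and 6.77 CPM in G27, G28 and G42. DEN model rats lay above both other groups, which overlapped each other. The fitted log2 fold change was 1.26 (SE 0.25, adjusted p = 0.0044 by edgeR) in the DEN model and -1.74 after PZH (SE 0.34, adjusted p = 0.016). Between PZH administration and normal control rats it was -0.53 with a 95% interval from -1.21 to 0.16, which did not pass the test. Plvap thus differed from Cd34 and Vwf in that no difference from normal liver was called after PZH.

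Among the sinusoidal genes, Clec4g showed the largest decrease (chromosome 12, 2273941 to 2277169). It encodes a C-type lectin receptor of sinusoidal endothelium. Its values were 17.1, 6.29 and 16.3 CPM in N1, N3 and N12, 2.38, 4.36 and 2.37 CPM in M13, M17 and M24, and 8.88, 8.003 and 5.98 CPM in G27, G28 and G42. Rat N3 was far below the other normal control rats and within the range of the PZH administration rats. Clec4g changed by -2.10 on the log2 scale (SE 0.42, adjusted p = 0.0045 by edgeR) in the DEN model and 1.36 after PZH (SE 0.34, adjusted p = 0.029). DEN model libraries held 56 to 88 Clec4g reads, the fewest of any member in that group.

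Fcgr2b encodes the inhibitory Fc receptor through which sinusoidal endothelium clears immune complexes and which B cells and macrophages also carry (chromosome 13, 89327794 to 89433815). It was at 136, 167 and 157 CPM in N1, N3 and N12, at 51.0, 56.3 and 36.3 CPM in M13, M17 and M24, and at 114, 111 and 130.3 CPM in G27, G28 and G42. DEN model rats lay below every rat of both other groups. On the log2 scale the fitted change was -1.67 (SE 0.22, adjusted p = 0.0007 by edgeR) in the DEN model and 1.33 after PZH (SE 0.21, adjusted p = 0.011). The span of Fcgr2b in the table overlaps that of Fcgr3a, a related receptor carried by macrophages and natural killer cells, so reads could be shared. Fcgr3a changed in the opposite direction, by 1.35 in the DEN model (adjusted p = 0.010) and -1.71 after PZH (adjusted p = 0.025), from 12.2 ± 2.42 CPM in normal control to 30.8 ± 14.4 CPM in DEN model and 9.25 ± 3.67 CPM after PZH (SD, n = 3).

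Lyve1 encodes a hyaluronan receptor of sinusoidal and lymphatic endothelium (chromosome 1, 175663266 to 175676699). Its values were 115, 124 and 122 CPM in N1, N3 and N12, 78.5, 92.6 and 49.2 CPM in M13, M17 and M24, and 109.9, 108 and 81.3 CPM in G27, G28 and G42. The normal control rats were close together and above all other rats. The decrease of Lyve1 in the DEN model, -0.70 on the log2 scale (SE 0.24, adjusted p = 0.043 by edgeR) was the smallest one called in this comparison. With library totals it turned to 0.14 (adjusted p = 0.59). After PZH the value against the DEN model was 0.47 with a 95% interval from -0.13 to 1.07, and it was not called.

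Stab2 encodes the scavenger receptor that clears hyaluronan from the circulation (chromosome 7, 27369853 to 27552078). It was at 67.5, 38.5 and 62.0 CPM in N1, N3 and N12, at 25.8, 54.3 and 23.1 CPM in M13, M17 and M24, and at 76.0, 62.5 and 42.4 CPM in G27, G28 and G42. Rat M17 stood among the other groups while M13 and M24 lay below them. The fitted log2 fold change was -0.68 in the DEN model (95% interval -1.47 to 0.11, adjusted p = 0.14 by edgeR) and 0.84 after PZH (0.0043 to 1.67, adjusted p = 0.14). Without M17 the values were -1.17 (adjusted p = 0.0067) and 1.31 (adjusted p = 0.016), so this rat decided both calls.

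Stab1 encodes the related receptor stabilin-1, which macrophages also carry (chromosome 16, 7222067 to 7250924). It was at 42.01, 19.0 and 36.8 CPM in N1, N3 and N12, at 44.9, 42.7 and 25.5 CPM in M13, M17 and M24, and at 34.4, 26.0 and 24.1 CPM in G27, G28 and G42. The 3 groups overlapped throughout. Its log2 fold change was 0.23 in the DEN model (95% interval -0.49 to 0.95, adjusted p = 0.58 by edgeR) and -0.39 after PZH (-0.98 to 0.20, adjusted p = 0.32). With library totals, Stab1 was called higher in the DEN model (1.05, adjusted p = 0.017) and lower after PZH (-1.05, adjusted p = 0.0099).

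Kdr encodes VEGFR-2, the main signalling receptor for vascular endothelial growth factor (chromosome 14, 34727623 to 34787183). It was at 159.7, 122 and 134 CPM in N1, N3 and N12, at 80.4, 70.7 and 33.9 CPM in M13, M17 and M24, and at 133, 122 and 101 CPM in G27, G28 and G42. DEN model rats lay below both other groups. Its log2 fold change was -1.15 in the DEN model (SE 0.31, adjusted p = 0.015 by edgeR). After PZH it was 0.97 (95% interval 0.24 to 1.69, adjusted p = 0.065), which missed the threshold, whereas DESeq2 gave 0.98 (adjusted p = 0.020).

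Several of these calls rested on single rats. In the DEN model comparison, the adjusted p of Lyve1 by edgeR rose to 0.093 without M13, 0.13 without M24, 0.079 without N1, 0.099 without N12 and 0.086 without N3, and that of Kdr to 0.053 without N1. Library totals left Fcgr2b (-0.82, adjusted p = 0.0048) and Clec4g (-1.31, adjusted p = 0.022) called as lower, gave Kdr -0.32 (adjusted p = 0.35), and turned the sign of Lyve1 and of Stab2 (0.10).

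In PZH administration against DEN model rats, which addresses what changed in livers of rats given PZH during DEN exposure, each called member went opposite to its change in the DEN model. These comparisons share the DEN model rats, so opposite signs are not independent of each other. All 3 continuous genes were lower and 2 of the 5 sinusoidal genes, Fcgr2b and Clec4g, were higher. Of all 14272 tested genes 19.1% were called, 8.72% as higher and 10.3% as lower. The study's thresholds, which 2.43% of all genes passed, were passed by 0 of the 9 members, although 6 had an unadjusted p under 0.05 with groups that did not overlap. Groups did not overlap in 40.8% of all genes, 18.4% higher and 22.5% lower.

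The calls in this comparison depended on rat M13. Without it, the number of called genes fell from 2722 to 271, and none of the 9 members stayed called by edgeR, with an adjusted p of 0.055 for Cd34, 0.060 for Plvap, 0.18 for Vwf, 0.053 for Fcgr2b and 0.12 for Clec4g. The log2 fold changes themselves moved less, to -1.63 for Cd34, -1.75 for Plvap, -0.66 for Vwf, 1.37 for Fcgr2b and 1.21 for Clec4g. Vwf also lost its call without M17 (adjusted p = 0.065), M24 (0.072), G27 (0.11) and G42 (0.14), and Clec4g without M24 (0.10), G27 (0.066) and G28 (0.080). Clec4g was not called with library totals either (0.72, adjusted p = 0.091).

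In PZH administration against normal control rats, a comparison without the DEN model rats, 5.21% of all 13348 tested genes were called, 4.07% as higher and 1.15% as lower. Cd34 and Vwf were the 2 members called, both higher, and Cd34 also met the study's thresholds, as did 2.32% of all genes. None of the 5 sinusoidal genes was called at the adjusted threshold or at an unadjusted p under 0.05, nor was any with DESeq2. Their log2 fold changes ran from -0.77 for Clec4g (95% interval -1.60 to 0.05) to 0.12 for Stab2 (-0.49 to 0.73), and that of Kdr was -0.22 (-0.65 to 0.22). Fcgr2b and Lyve1 still did not overlap normal control rats, all 3 PZH administration rats being lower, as in 10.6% of all genes, and Cd34 and Vwf were higher without overlap, as in 13.6% (24.2% in either direction). Vwf lost its call by edgeR without N1 (adjusted p = 0.053), N3 (0.051), N12 (0.082), G28 (0.12) or G42 (0.0502), with log2 fold changes between 1.32 and 1.86. The plot of fitted log2 fold changes gives all 3 comparisons.

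**Figure D2:**
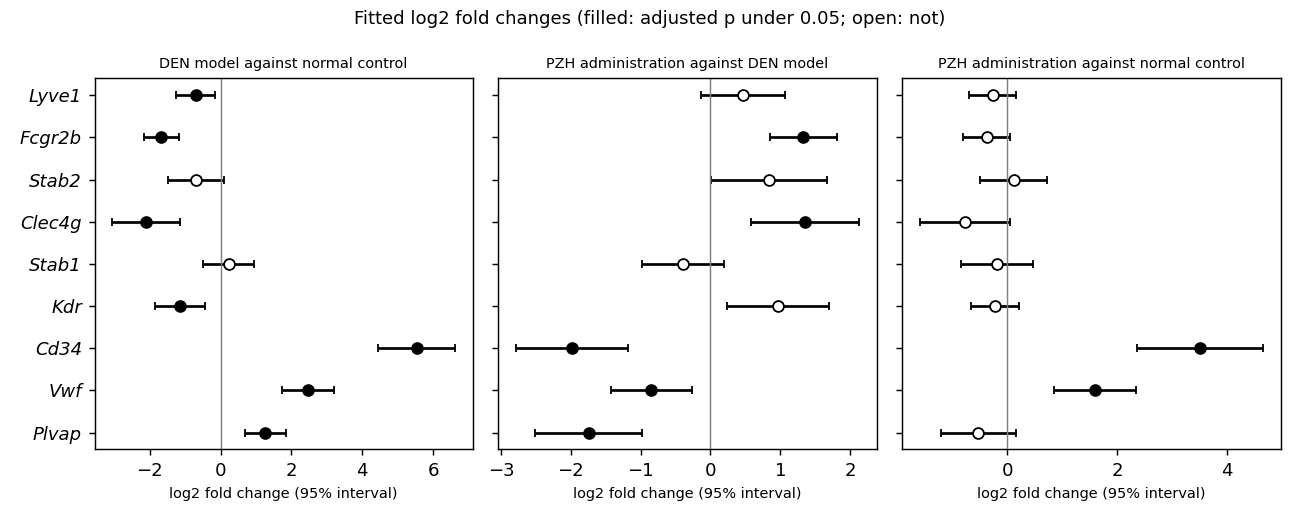
Fitted log2 fold change (horizontal axis, each panel on its own scale) with its 95% interval for the 9 members in the 3 comparisons, filled where the adjusted p by edgeR was under 0.05. Cd34 and Vwf lie to the right of 0 in both comparisons with normal control rats, while Lyve1, Fcgr2b, Stab2, Clec4g, Stab1, Kdr and Plvap have intervals that include 0 between PZH administration and normal control rats.

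Levels of different genes can be set side by side only per transcript length, for which the authors' FPKM values were used. In normal control rats the order of mean FPKM was Lyve1 (30.2), Fcgr2b (27.19), Kdr (13.99), Clec4g (12.5), Stab2 (5.75), Plvap (5.38), Stab1 (3.62), Vwf (1.21) and Cd34 (0.134). The ranges of Kdr, Clec4g, Stab2, Plvap and Stab1 overlapped from each to the next, and the remaining steps were clear of overlap. In DEN model rats Lyve1 was still first (33.1) but Plvap (22.7) came next, ahead of Fcgr2b (15.4), Vwf (12.0), Cd34 (11.4), Kdr (11.2), Stab1 (7.49), Stab2 (6.17) and Clec4g (5.02). There only Plvap and Fcgr2b, neighbours in the order, did not overlap. In PZH administration rats the order was that of normal control rats except that Vwf (4.23) stood above Stab1 (3.62), their ranges overlapping, with Cd34 (1.84) again last and its range below that of Stab1.

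To set both classes against each other within each library, the mean log2(CPM + 1) of the 5 sinusoidal genes was subtracted from that of the 3 continuous genes. Only differences of this index between rats can be read, since CPM does not account for gene length. The index was -2.89, -2.94 and -3.11 in N1, N3 and N12, 0.64, 0.05 and 0.31 in M13, M17 and M24, and -1.93, -1.65 and -1.72 in G27, G28 and G42. The groups did not overlap, and the SD within groups was 0.12 in normal control, 0.30 in DEN model and 0.15 in PZH administration rats (n = 3). No p is given for this index because of how the members were chosen. Without Cd34, the member with the largest change, the index ran from -1.93 to -1.64, from 0.73 to 1.13 and from -1.21 to -0.73 in the same order of groups. The plot of the 2 class means places PZH administration rats between the other groups on the axis of the continuous genes.

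**Figure D3:**
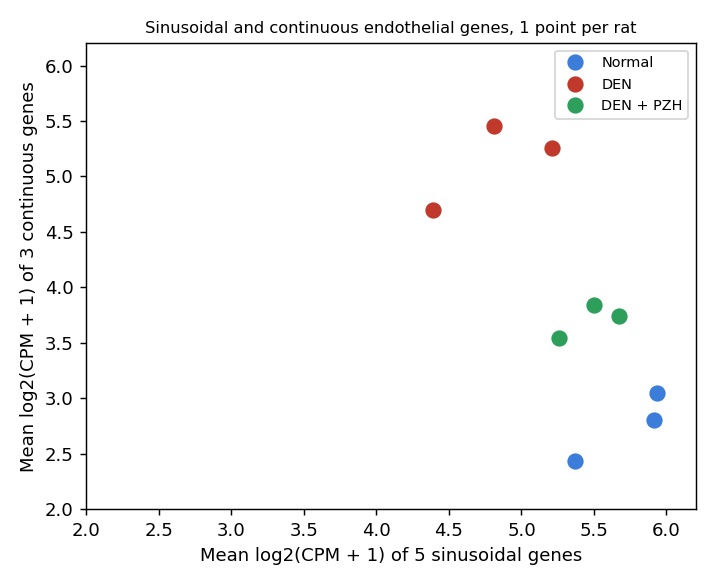
Mean log2(CPM + 1) of the 3 continuous genes (vertical axis) against that of the 5 sinusoidal genes (horizontal axis), 1 point per rat coloured by group. The vertical values run from 2.43 to 3.04 in normal control, 3.54 to 3.85 in PZH administration and 4.70 to 5.45 in DEN model rats, whereas the horizontal values of normal control and PZH administration rats overlap.

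Rats of the same group differed in the general level of endothelial transcripts. A list of 14 genes shared by all endothelium (Cdh5, Tie1, Tek, Erg, Flt1, Egfl7, Robo4, Sox18, Eng, Esam, Icam2, Mmrn2, Clec14a and Ecscr) had a mean log2(CPM + 1) of 3.69 in N3 against 3.98 and 4.13 in the other normal control rats, of 3.83 in M24 against 4.58 and 4.78, and of 3.61 in G42 against 3.97 and 4.14. These same 3 rats held the lowest value of their group in most members, in 6 of 9 for N3, 9 of 9 for M24 and 7 of 9 for G42. In DEN model against normal control rats 3 of the 14 shared genes were called, all higher, among them Ecscr, an endothelial surface protein (log2 fold change 3.20, adjusted p = 0.0084), and Cdh5, VE-cadherin of endothelial junctions (0.98, adjusted p = 0.031 by edgeR), and the median was 0.54 against 0.03 for all genes. That count is below the 25.3% of all genes called higher. With library totals 12 of the 14 were called higher, but 89.4% of all called genes were higher under that scaling. After PZH 1 of the 14 was called, Ecscr, as lower (-1.85, adjusted p = 0.021 by edgeR). The median was -0.60, and 10.3% of all genes were called lower. Library totals called 12 of the 14 lower with a median of -1.26, but only 8.92% of all called genes were higher there. Other counts under library totals are to be read beside these shares.

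Each member was therefore also expressed relative to these 14 genes, as its log2(CPM + 1) minus their mean in the same library. On this scale Lyve1, Stab2, Clec4g, Fcgr2b and Kdr lay lower in every DEN model rat than in any normal control rat, by differences in means of -1.22, -1.22, -2.21, -2.15 and -1.70. Cd34, Vwf and Plvap lay higher in every DEN model rat, by 3.06, 1.97 and 0.70. Stab1 overlapped (difference -0.23). On this scale 31.7% of all tested genes lay lower and 13% higher in every DEN model rat, the median fold change of the shared genes themselves being 0.54, and the separation of Stab2 appeared on this scale but not in CPM. PZH administration rats lay above all DEN model rats for Lyve1 (0.97), Stab2 (1.35), Clec4g (1.61), Fcgr2b (1.80) and Kdr (1.505) and below them for Cd34 (-1.21) and Plvap (-1.22), while Vwf (-0.37) overlapped. Of all tested genes 24.2% lay above and 4.09% below on this scale after PZH. Against normal control rats Cd34 and Vwf lay higher and Kdr and Plvap lower without overlap after PZH, as did 11% and 9.39% of all tested genes. The spread between rats of a group shrank most for Kdr, from a within-group SD of 0.41 for its own log2 level to 0.11 relative to the shared genes, and grew for Fcgr2b, from 0.22 to 0.34. The other 7 members had a smaller SD on the relative scale.

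**Figure D4:**
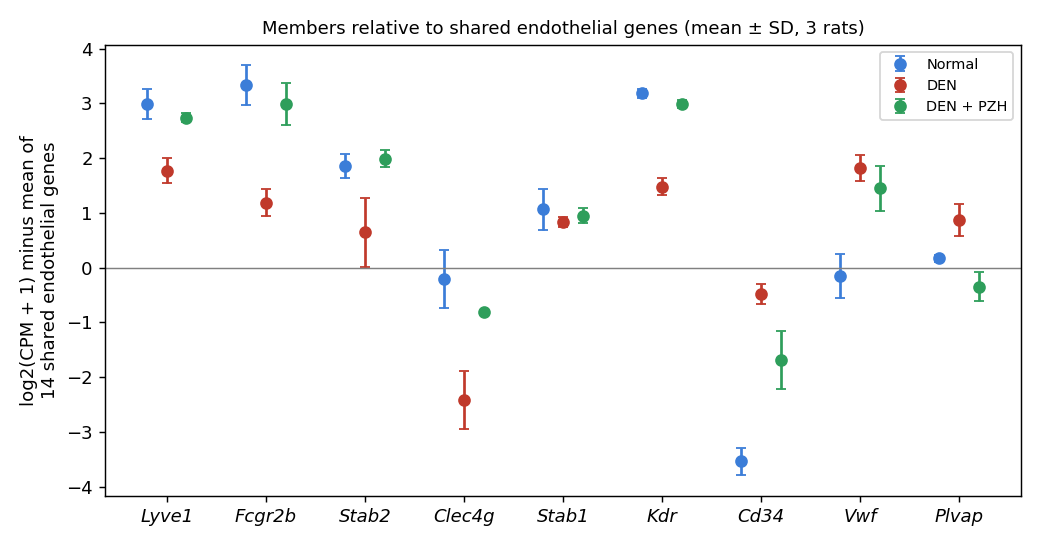
Level of each member relative to the 14 shared endothelial genes, on a log2 scale, as mean and SD of 3 rats per group. For Lyve1, Fcgr2b, Stab2, Clec4g and Kdr the DEN model mean lies below both other groups, for Cd34, Vwf and Plvap above both, and for Stab1 the 3 means are 1.06, 0.83 and 0.95.

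Further endothelial genes were taken from lists of textbook markers. Of 12 other sinusoidal genes, 4 were called in DEN model against normal control rats, all lower, and 8 were not called, where 20.5% of all genes were called lower. Bmp2, the ligand through which sinusoidal endothelium drives hepcidin in hepatocytes, went from 30.0 ± 2.24 to 11.03 ± 2.40 CPM (SD, n = 3) with a log2 fold change of -1.42 (adjusted p = 0.0010 by edgeR). Dnase1l3, a secreted nuclease, went from 50.4 ± 6.19 to 20.04 ± 3.44 CPM with a log2 fold change of -1.31 (adjusted p = 0.0011). The median of the 12 was -0.53, but 0.28 with library totals, under which 5 were called higher and 2 lower. After PZH 2 were called, both higher, where 8.72% of all genes were, Ehd3, an endocytic trafficking gene (1.20, adjusted p = 0.027), and Bmp2 (0.86, adjusted p = 0.030), while library totals called 0 higher and 2 lower there. Against normal control rats 0 of 12 were called by edgeR (3 at an unadjusted p under 0.05) and 1, as lower, by DESeq2. Of all genes 5.21% were called there by edgeR, 1.15% as lower.

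Of 12 other genes of continuous endothelium 10 were tested in the DEN model comparison, and 6 were called, all higher, where 25.3% of all genes were. Bulk RNA does not show which cells these values come from. Cav1, caveolin-1, the coat protein of caveolae, went from 3.59 ± 0.149 to 41.0 ± 14.8 CPM (SD, n = 3), a log2 fold change of 3.53 (adjusted p = 0.00014 by edgeR), and was at 14.1 ± 2.68 CPM in PZH administration rats. Podxl, a sialomucin related to Cd34, had a log2 fold change of 2.50 (adjusted p = 0.00019). After PZH 6 of 11 were called, all lower, where 10.3% of all genes were, among them Cavin1, a second caveolar coat gene (-1.22, adjusted p = 0.010), and Sele, E-selectin of activated endothelium, which had 26 to 67 counts in DEN model rats, at most 2 in normal control rats and at most 1 in PZH administration rats. The median log2 fold changes were 1.60 and -1.22 and kept their signs with library totals (2.47 and -1.90). Against normal control rats 1 of 10 was called after PZH, Cav1, as higher (1.98, adjusted p = 0.0051 by edgeR), where 4.07% of all genes were. The list median was 0.32. Library totals called 3 higher and 0 lower, and DESeq2 called 3 higher and 1 lower. Without overlap 4 lay higher and 2 lower, as did 13.6% and 10.6% of all genes. By edgeR, Cldn5 (2.82, adjusted p = 0.066), Podxl (1.07, adjusted p = 0.066) and Cavin1 (0.84, adjusted p = 0.15) were not called but lay higher without overlap. Sox17 (-1.12, adjusted p = 0.065) and Selp (-0.93, adjusted p = 0.13) were not called but lay lower without overlap.

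Of the genes of the vascular basement membrane, all 7 tested (Col4a1, Col4a2, Lama4, Lamb1, Lamc1, Nid1 and Nid2) were called higher in the DEN model and lower after PZH, with medians of 2.70 and -1.53, and with library totals the counts were the same. Of all genes 25.3% were called higher and 10.3% lower in these comparisons. Lamb1, a laminin chain, went from 10.1 ± 1.34 to 109.4 ± 19.95 and then 33.1 ± 5.99 CPM (SD, n = 3), from normal control to DEN model and then PZH administration rats. Nid1, nidogen-1, rose by 2.87 in the DEN model (adjusted p = 0.00015), and Col4a1, a collagen IV chain, changed by -1.87 after PZH (adjusted p = 0.0098), as did Lamb1 by -1.70 (adjusted p = 0.0083). Against normal control rats 4 of the 7 remained higher after PZH, where 4.07% of all genes were called higher, Lamb1 among them (1.71, adjusted p = 0.0059 by edgeR). The 3 not called by edgeR were Col4a2 (1.14, adjusted p = 0.10), Lama4 (0.65, adjusted p = 0.18) and Lamc1 (-0.07, adjusted p = 0.90). Col4a2 and Lama4 lay higher without overlap, and DESeq2 called 5 of the 7 higher. These proteins are also made by stellate cells and bile duct epithelium. Of 8 stellate cell and myofibroblast markers 7 were called higher in the DEN model and 5 lower after PZH, and of 6 cholangiocyte markers all 6 were called in each of these directions, beside the same shares of all genes. The stellate genes Pdgfrb (2.36, adjusted p = 0.00022) and Dcn (3.28, adjusted p = 0.00029) were higher in the DEN model, and Pdgfrb (-1.30, adjusted p = 0.0093) and Rgs5 (-1.80, adjusted p = 0.013) lower after PZH. The cholangiocyte genes Cftr (7.004, adjusted p = 9.1e-06) and Sox9 (5.57, adjusted p = 5.4e-05) were higher in the DEN model, and Sox9 (-2.10, adjusted p = 0.0089) and Krt19 (-4.01, adjusted p = 0.012) lower after PZH. The part of these cells in the values of the basement membrane genes, or of the continuous endothelium genes, was not tested.

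**Figure D5:**
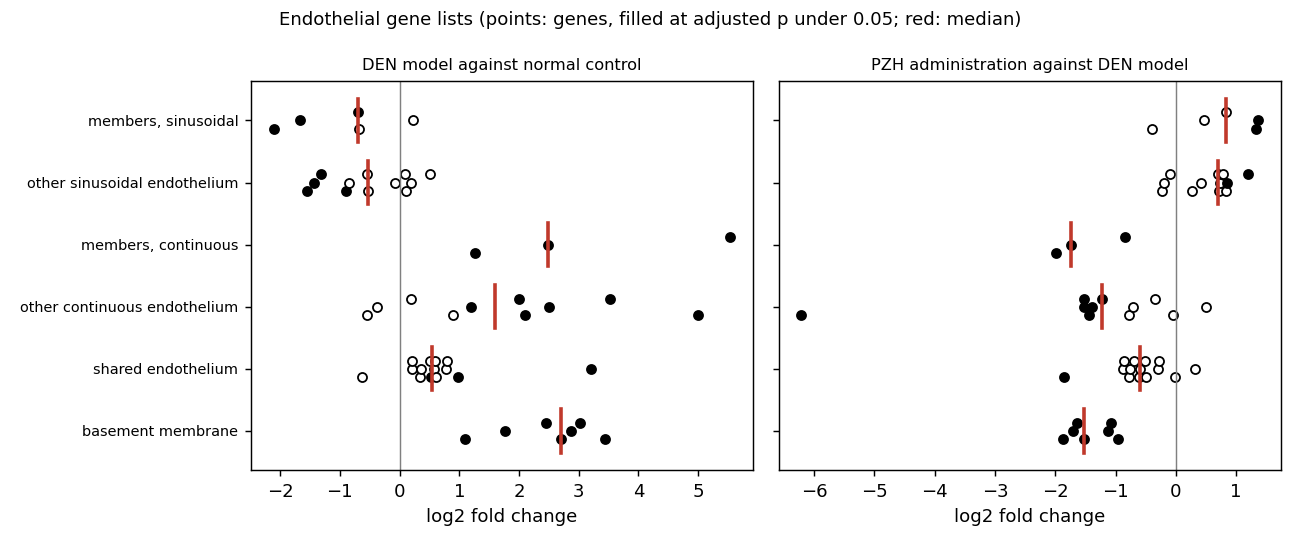
Fitted log2 fold changes of single genes (points, filled at an adjusted p under 0.05 by edgeR) in 6 gene groups, with the group median in red, for DEN model against normal control and PZH administration against DEN model rats. Sinusoidal medians lie at -0.70 and -0.53 in the DEN model and continuous ones at 2.48 and 1.60, and their signs are opposite after PZH. With library totals the sinusoidal medians in the DEN model turn to 0.10 and 0.28.

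Kdr was further set beside a list of VEGF ligands, receptors and co-receptors, not chosen for binding to Kdr. The list includes Flt1, which is also among the shared endothelial genes. Of 7 tested VEGF genes 5 were called higher and 2 lower in the DEN model, where 25.3% and 20.5% of all genes were. Vegfa, the main ligand of Kdr, was at 159.9 ± 19.2 CPM in normal control, 77.4 ± 23.0 CPM in DEN model and 100.3 ± 45.7 CPM after PZH (SD, n = 3), and its decrease in the DEN model was -1.03 on the log2 scale (adjusted p = 0.0080 by edgeR), and Vegfb also fell (-1.02, adjusted p = 0.0072). Neither was called with library totals. Vegfd, a ligand better known from lymphatic vessels, went from 1.55 ± 0.670 to 33.4 ± 12.1 CPM (log2 fold change 4.44, adjusted p = 0.00018) and to 6.47 ± 1.84 CPM after PZH (-2.35, adjusted p = 0.0093). The co-receptor Nrp1 rose by 1.59 on the log2 scale in the DEN model (adjusted p = 0.00032), and Nrp2 fell by 1.29 after PZH (adjusted p = 0.014). After PZH 2 of the 7 were called lower (Vegfd and Nrp2) and 1 higher, Vegfb (0.90, adjusted p = 0.035), and 4 were not called, where 10.3% of all genes were called lower and 8.72% higher. The count depended on the setting, with 0 higher and 5 lower under library totals and 1 higher and 4 lower by DESeq2.

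Markers of other cells that carry members moved to differing degrees. For Lyve1, the lymphatic genes Mmrn1 (5.85, adjusted p = 0.00061) and Ccl21 (3.82, adjusted p = 0.0021) were called higher in the DEN model by edgeR, while Prox1, which hepatocytes also express, was lower (-1.46, adjusted p = 0.0043). Of the 4 lymphatic genes 3 were called higher and 1 lower in the DEN model, where 25.3% and 20.5% of all genes were. After PZH Ccl21 was lower (-1.42, adjusted p = 0.026) and Prox1 higher (1.10, adjusted p = 0.044), where 10.3% and 8.72% of all genes were. Library totals called 0 of the 4 lymphatic genes higher and 3 lower after PZH, where 8.92% of all called genes were higher. For Fcgr2b, the B cell genes Cd22 (0.24, adjusted p = 0.59) and Cd79b (0.62, adjusted p = 0.33) were not called by edgeR in the DEN model, nor after PZH (-0.69, adjusted p = 0.24, and -0.80, adjusted p = 0.26), so that their values had the opposite sign to those of Fcgr2b. Library totals called both higher in the DEN model and both lower after PZH. Their means were at most 10.5 CPM for Cd22 and 1.27 CPM for Cd79b, both in DEN model rats. For Stab1 and Fcgr2b, 3 of 8 macrophage markers were called in the DEN model by edgeR, all lower, where 20.5% of all genes were. Among them were the Kupffer cell genes Clec4f (-1.28, adjusted p = 0.0090) and Vsig4 (-1.54, adjusted p = 0.013). The summed level of the 8 was 545 to 1024 CPM in normal control, 504 to 640 CPM in DEN model and 264 to 651 CPM in PZH administration rats. The general macrophage genes Cd68 (0.50, adjusted p = 0.082), Adgre1 (0.57, adjusted p = 0.081) and Csf1r (0.53, adjusted p = 0.12) had positive values in the DEN model that were not called, and the list median was 0.03. After PZH these 3 were the ones called by edgeR, all lower, where 10.3% of all genes were. Their edgeR values were -0.95 (adjusted p = 0.048) for Cd68, -0.84 (adjusted p = 0.020) for Adgre1 and -0.99 (adjusted p = 0.032) for Csf1r, with a list median of -0.56. Library totals instead called 4 of these 8 higher and 1 lower in the DEN model, and 4 lower after PZH. For Vwf, platelet and megakaryocyte markers summed to no more than 15.6 CPM in any rat, with 2 of the 6 tested. Pf4 was called higher in the DEN model (2.02, adjusted p = 0.0038) and lower after PZH (-1.76, adjusted p = 0.024). The more abundant Itga2b had values of the opposite sign that were not called by edgeR (-1.13, adjusted p = 0.066, and 0.65, adjusted p = 0.40), with means of 11.1, 4.99 and 7.61 CPM in the normal control, DEN model and PZH groups, and DESeq2 called 1 of the 2 higher and 1 lower in the DEN model. For Cd34, the blood progenitor markers Kit, Flt3, Gata2, Gata1 and Mpo summed to 13.8 to 20.1 CPM in normal control, 21.9 to 25.8 CPM in DEN model and 21.8 to 33.7 CPM in PZH administration rats, and 0 of the 3 tested were called by edgeR in any comparison, while library totals called 2 higher in the DEN model. At an unadjusted p under 0.05 there was 1 in the DEN model, 1 after PZH and 2 against normal control rats, and DESeq2 called 1, as higher, after PZH only. Of 7 hepatocyte markers edgeR called 4 lower in the DEN model and 3 higher after PZH, where 20.5% and 8.72% of all genes were. DESeq2 called 6 lower and 6 higher. By edgeR, Ttr, transthyretin, was at -3.89 (adjusted p = 0.00067) and 3.50 (adjusted p = 0.012), and Asgr1, a hepatocyte surface receptor, at -2.24 (adjusted p = 0.0016) and 1.82 (adjusted p = 0.022). The part of these cells in the values of the members was not tested. Nor was that of stellate cells and cholangiocytes, whose markers, like Cd34, were mostly called higher in the DEN model and lower after PZH.

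Finally, the genes with the most similar pattern over the 9 rats were sought by the root-mean-square distance between centred log2(CPM + 1) profiles, among 13354 genes with a mean of at least 1 CPM. The 3 nearest were Sctr (0.21), Tril (0.27) and Celsr1 (0.29) for Cd34, Fxyd6 (0.15), Hid1 (0.21) and Glis2 (0.24) for Vwf, Dcst2 (0.16), Oplah (0.17) and Mgll (0.18) for Clec4g, and Cgnl1 (0.19), Rbfa (0.20) and Hdhd3 (0.21) for Stab2. For comparison, the profiles of these 4 members had an SD of 1.47, 1.08, 0.83 and 0.56. None of these 12 neighbours belongs to the gene lists used here, and which cells carry them was not tested.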

How the data were processed

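Liver mRNA of 9 rats was sequenced by the authors on an Illumina platform. Their processing notes name fastp, HISAT2 2.1.0, StringTie 1.3.3b and edgeR 3.30.3. The read counter and genome build are not given in the sources used here. The deposited counts are integer read numbers for each gene and library and carry no normalization. The authors' FPKM values account for the length of a transcript and the size of the library. The table's 18 columns of the authors' own group means, fold changes, P-values, Q-values and calls were not used.

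For each comparison, the quasi-likelihood test of edgeR 4.0.16 in R 4.3.3 was fitted to the 6 rats concerned with no covariate, after filterByExpr and TMM scaling. P-values were Benjamini-Hochberg adjusted over all genes tested. Standard errors were computed as the log2 fold change divided by the square root of the F statistic. The test was tried on simulated counts first. Values per rat are CPM with TMM factors over all 9 rats. As 1 library was made per rat, the spread is that between rats. Intervals of fold changes come from these standard errors and so include the spread between rats. Floors in counts cover counting error only. All pairs of rats in a group differed by more than sampling noise.

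The members and gene lists were chosen with earlier results of these data known, so no test was run over a list. Named were all members, the 2 genes with the lowest adjusted p per direction in each list and the 3 nearest patterns of Cd34, Vwf, Clec4g and Stab2. Beyond those rules, Fcgr3a, Cd68, Itga2b, Cd22, Cd79b, Lamc1, Col4a2, Lama4, Cldn5, Sox17 and Selp were named after their values were seen. Alternatives were DESeq2 1.42.0, library totals, one fit of all 3 groups, no filter, a minimum of 10 counts per rat, the study's thresholds, leaving out each rat, and for log levels a pseudocount of 0.1 and log2(FPKM + 0.1). Thinning G27 to the next deepest library was chosen after seeing the data. Promoter sequences are from RefSeq (GRCr8). The B cell list as a whole is not reported here.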

Additional observations from a re-analysis of the deposited data

How the results depend on the processing

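Over 9 members and 3 comparisons, DESeq2 kept 26 of 27 calls or non-calls (Kdr after PZH was added), one fit of all 3 groups kept 25, no filter kept 25, and thinning G27, chosen after seeing the data, kept all 18. At least 10 counts in every rat kept 24 of 25, with Cd34 left untested against normal control rats. Lyve1 in the DEN model lost its call with no filter (adjusted p = 0.060) and at that minimum (0.070), and Vwf after PZH with no filter (0.053) and in one fit (0.076), where Kdr gained one (0.043), all by edgeR. Library totals kept 19 of 27 and reversed Lyve1 in the DEN model (0.14) and after PZH (-0.17), Stab2 in the DEN model (0.10) and Stab1 between PZH administration and normal control rats (0.00044). Leaving out rats reversed uncalled values only. Stab1 in the DEN model ran from -0.047 (without N3) to 0.46. Against normal control rats after PZH, Stab1 ran from -0.46 to 0.0048 (without N1) and Stab2 from -0.091 (without G27; -0.077 without N3) to 0.31.

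The number of called genes in the DEN model comparison (6529) became 1753 under the study's thresholds. After PZH it was 2722, with 6232 under library totals (8.92% of them higher, against 45.7%), 347 under the study's thresholds and 271 to 3319 when a rat was left out. In the DEN model comparison the share of higher calls was 55.3%, and 89.4% under library totals. Against normal control rats it was 696 after PZH, with 340 at the count minimum of 10, 1320 with DESeq2, 310 under the study's thresholds and 207 to 1326 when a rat was left out, and 78.0% of calls were higher against 90.0% under library totals. Under the study's thresholds 1 of the 5 sinusoidal genes stayed in the DEN model and 0 after PZH, and of the 3 continuous genes 0 stayed after PZH and 1 against normal control rats, where the count minimum also left 1. Leaving out a rat gave 0 to 3 sinusoidal and 0 to 3 continuous genes after PZH, and 1 to 2 continuous genes against normal control rats.

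The index of continuous minus sinusoidal genes differed by 3.31 between DEN model and normal control rats, by 3.78 from FPKM and by 3.96 with a pseudocount of 0.1. Between PZH administration and normal control rats the differences were 1.21, 1.54 and 1.70. Relative to shared endothelial genes, 2 members lay below normal control rats after PZH without overlap (Kdr and Plvap), against 1 with library totals and 2 to 4 when a rat was left out. The cause of these shifts was not tested. No paired analysis was possible because the rats' numbers are not shared between groups. Depth limits Cd34 in normal control rats, with 2 to 6 reads per library.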
